A study of Cubamyces sp. BRFM 1775 with 14 samples.

Results

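This account covers 61 genes of the wood-decaying fungus Leiotrametes sp. BRFM1775 that stood at similar levels on maltose and on cellulose and at least 2-fold lower on both pine and aspen. They were picked from the 1052 genes of a deposited expression table, of which they make up 5.80%. The rule asked for deposited log2 values on maltose and cellulose less than 1 apart, and for the lower of these to lie at least 1 above the higher of pine and aspen. Values on maltose, cellulose, pine and aspen thus chose the genes, and the fall from maltose and cellulose to the woods is given as a description, without a test. Wheat straw played no part in the choice. Tests of straw against the other carbon sources, and of pine against aspen, still use values that the rule had used, and this is said beside them. The genes carry protein numbers only, which the table does not pair with names, so no function is given for any of them.

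Mycelium of the fungus, which GEO files under Cubamyces, was cultured for 3 days at 30 °C with shaking at 120 rpm on 5 carbon sources, and its polyadenylated RNA was sequenced. All groups are the same strain in the same mineral medium with yeast extract. Maltose cultures had 20 g/l of the sugar and no solid. Cellulose cultures had 15 g/l Avicel, a microcrystalline cellulose, and 2.5 g/l maltose, and the wheat straw and pine cultures had 15 g/l of the ground and sifted material with the same 2.5 g/l maltose. Aspen was given as 15 g/l of Wiley-milled wood, with a maltose concentration that is garbled in the labels. Maltose against pine therefore differs in both the sugar concentration and the solid, while cellulose, wheat straw and pine had the same stated maltose. RNA came from mycelium frozen with what was left of the solid.

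White-rot fungi of the Polyporales break down cellulose, hemicelluloses and lignin with secreted enzymes, and much of their gene expression follows the carbon source. Maltose is a soluble disaccharide of glucose, whereas microcrystalline cellulose offers glucose chains without hemicellulose or lignin. Straw and wood are whole cell walls, in which the polysaccharides are embedded in lignin. Softwoods such as pine, hardwoods such as aspen, and grasses such as wheat differ in the make-up of their lignin and hemicelluloses.

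The table gives 1 value per carbon source, and it proved to be a mean of log2(normalised reads + 1) over libraries, from which the whole reads of single libraries could be worked back. This gave 13 libraries, 3 each on maltose, pine and aspen and 2 each on cellulose and wheat straw, against 14 labelled samples. Which labelled cellulose sample is missing is not known, and libraries are numbered by size factor, not by the labels. All 61 genes were resolved on cellulose and wheat straw, 57 were on pine, 56 on aspen and 45 on maltose, and 45 in all 13 libraries. Where a gene was not resolved, the deposited mean was kept and its spread came from its other libraries. Over all resolved genes the median reads per gene ran from 99 to 802 among libraries. The resolved genes numbered from 790 on pine to 1052 on cellulose, so these medians do not compare depth over the same genes. The labels do not say whether replicates were separate flasks, so tests measure the spread between libraries, which may be technical.

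On the log2 scale of the table the 61 genes had a median of 9.74 on maltose and 9.63 on cellulose. The median was 7.94 on wheat straw, and lower still on the woods, at 7.44 for pine and 7.13 for aspen. The medians of all 1052 genes went the other way, from 8.30 on maltose and 8.92 on cellulose to 9.20 on wheat straw, with 9.30 for pine and 9.13 for aspen. As a result, 40 of the 61 stood above the all-gene median on maltose, but 14 did on pine and 12 on aspen. The distance that the rule measures, from the lower of maltose and cellulose to the higher wood, had a median of 1.53 and reached 6.18. It was under 1.5 for 29 genes, at least 2 for 23 genes and at least 4 for 4 genes. Maltose exceeded cellulose in 37 genes and fell short of it in 24, with a median cellulose minus maltose difference of -0.12.

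**Figure D1:**
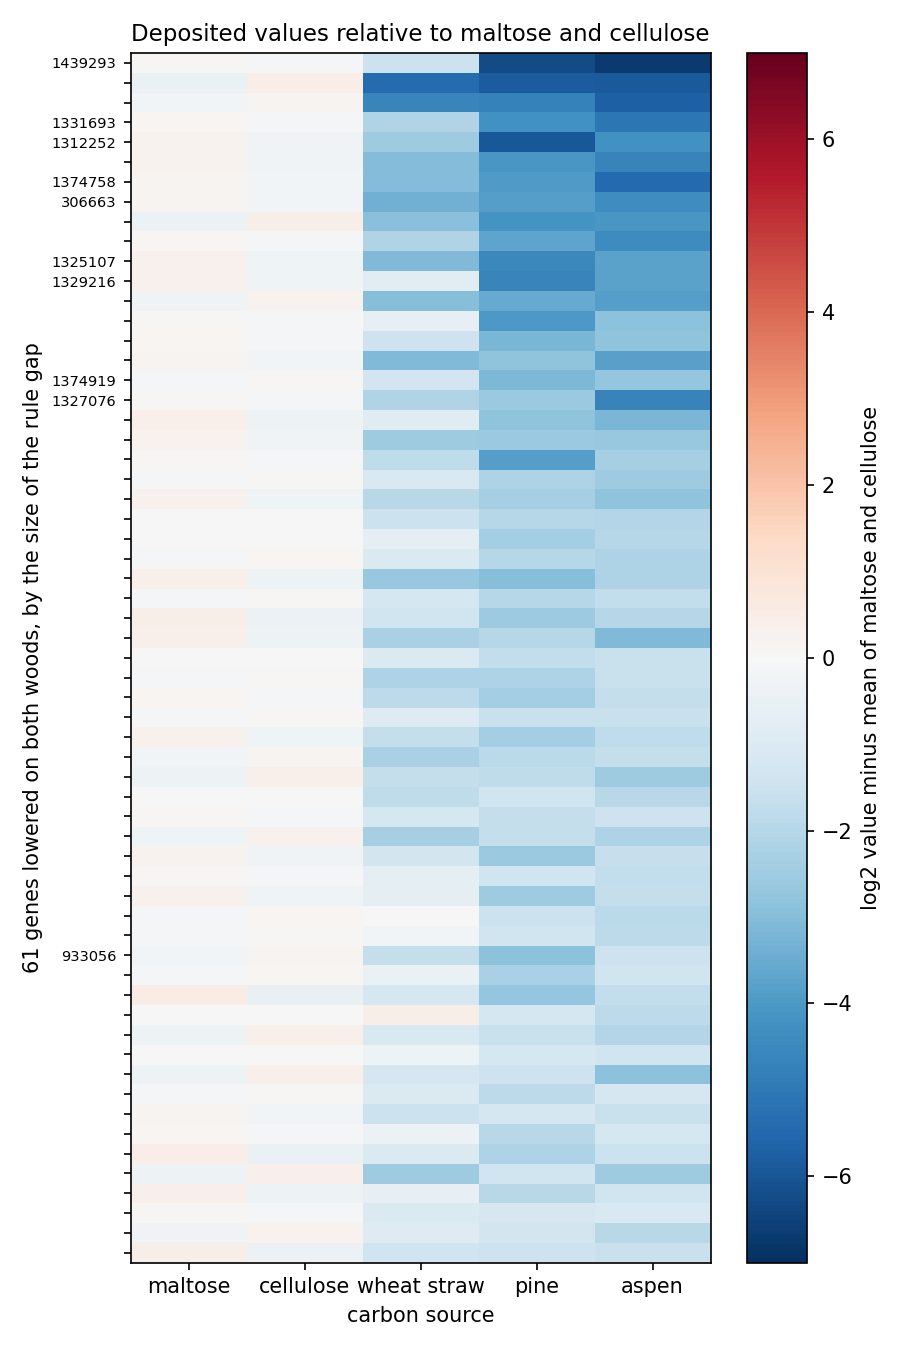
Deposited log2 value of each of the 61 genes (rows, largest rule gap at the top) on the 5 carbon sources (columns), minus the gene's mean of maltose and cellulose; blue is lower. Both wood columns are blue throughout, as the rule requires, and the wheat straw column, which the rule did not use, is mostly a paler blue.

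The genes spanned the whole range of expression. On maltose their values ran from 3.33 to 16.25, and 8 were among the 50 most abundant genes of the table, against 5 on cellulose, 4 on wheat straw and 0 on either wood. With the deposited values taken back from the log scale, the 61 genes made up 12% of the table's sum on maltose and 7.97% on cellulose. Their share was 3.67% on wheat straw, and for the woods 0.815% (pine) and 1.27% (aspen). These are shares of summed means, not of the reads of a library, and neither they nor the ranks are corrected for transcript length. Gene 1329216 ranked 5 of 1052 on maltose at 16.25 and 18 on cellulose at 15.62. It held rank 18 on wheat straw, at 15.13, and came to rank 311 on pine at 11.30 and rank 191 on aspen at 12.20. Its reads were 62708 and 50836 in the cellulose libraries, 43368 and 52670 in the wheat straw libraries and 1947, 2488 and 1884 in the pine libraries. After normalisation both straw libraries lay below both cellulose libraries, and pine lay far below either. Gene 1374919 ranked 7 on both maltose and cellulose, at 16.03 and 16.22, and stood at 14.77 on wheat straw, with 13.00 for pine and 13.44 for aspen. It had 126674 and 58442 reads on cellulose and 43637 and 31621 on wheat straw, and its straw libraries too lay below its cellulose libraries.

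The largest rule gap, 6.18, belonged to gene 1439293. It had 174, 259 and 445 reads in the maltose libraries and 172 and 548 on cellulose. On pine it had 3, 2 and 2 reads and on aspen 2 in each library, so the woods did not overlap with the other cultures. Wheat straw did not go with the woods in this gene: it had 115 and 165 reads there. Gene 1331693 had a gap of 4.11, from 19, 24 and 62 reads on maltose and 26 and 41 on cellulose. It had 7 and 11 reads on wheat straw and 3, 0 and 0 on pine, and none was counted in any aspen library. Any log2 difference from the woods in this gene rests on the 1 read added before the log. The other genes with a gap of at least 4 were 1370799 and 1117416, singled out after their values were seen, whose maltose libraries were not resolved. In all, 12 of the 55 genes resolved on both woods had 20 or fewer reads in every wood library, where counting error is large and the log2 scale understates the change.

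Replicate spread bears on who is in the set. All maltose and cellulose libraries lay above all wood libraries in 41 of the 45 fully resolved genes, against 13.5% of the 735 genes of the table resolved in all libraries. The rule used this contrast, so the share is a description. Cellulose had the largest median spread of the sources in the set, and its 2 libraries lay at least 1 apart in 21 of the 61 genes (34.4%), against 18.9% of all genes. Gene 1253768, the extreme case and singled out for it, had 133 and 3365 reads. The median standard deviation (SD) between cellulose libraries was 0.40 in the 61 genes and 0.29 in all genes, against 0.17 and 0.19 on maltose, 0.32 and 0.31 on pine and 0.22 and 0.23 on aspen. On wheat straw, outside the rule, it was 0.28 in the 61 genes and 0.17 in all genes. Each of these medians is over the genes resolved on that carbon source. Without cellulose library 1 the rule was still met by 52 of the 61 genes, and without cellulose library 2 by 43. With any 1 maltose, pine or aspen library left out, between 57 and 61 of them still met it.

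The edges of the rule were close. Gene 1345692 lay just inside with a gap of 1.02, and gene 1380019 just outside with 0.99. On the other condition, gene 1324528 was just kept with 5.98 on maltose and 4.98 on cellulose, and gene 1329084 was just left out with 10.56 and 9.55. A gap under 1.1 was found in 10 genes of the set.

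Wheat straw, the carbon source that took no part in the choice, lay below maltose and cellulose in nearly the whole set but mostly above the woods. It was under maltose in 59 of the 61 genes, against 41.3% of all genes, and under cellulose in 60, against 49.4%. The median differences in the set were -1.57 from maltose and -1.39 from cellulose. Over all 1052 genes these medians were 0.19 and 0.01. In 48 genes (78.7%) straw lay between the lower of maltose and cellulose and the higher wood, against 9.7% of all genes. It was at least 1 below both maltose and cellulose in 35 genes (57.4%), against 7.60% of all genes and 7.97% of the 765 genes whose maltose and cellulose values were less than 1 apart. On a scale where 0 is the mean of maltose and cellulose and 1 the mean of the woods, straw had a median of 0.61, with quartiles at 0.46 and 0.82. It was nearer to the woods in 41 genes and nearer to maltose and cellulose in 20. The rule set both ends of this scale, by choosing genes high on maltose and cellulose and low on the woods. A column outside the rule can fall between these ends through that choice alone, so the position of straw is given as a description.

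By limma's moderated test on the libraries, fitted over all 1052 genes, 39 of the 61 genes were lower on wheat straw than on maltose (63.9%). A call needed 2-fold or more between the means, with p after Benjamini-Hochberg adjustment under 0.05. The background was 10.1% of all genes. Against cellulose, 34 were lower (55.7%), with a background of 11.2%, and 28 were lower than on both (45.9%), with a background of 5.13%. The median difference of the called genes was -2.03 against maltose and -1.97 against cellulose. The fit shares 1 estimate of a gene's spread over all 5 carbon sources, although cellulose libraries spread most in the set. With only the carbon sources compared in the fit, 41 genes were lower than on maltose, 24 than on cellulose and 19 than on both. Limma called 0 genes of the set higher on straw than on maltose (background 25.2%) and 0 higher than on cellulose (background 18.4%). Both counts were also 0 at an unadjusted p below 0.05 with the same size limit. The maltose and cellulose values had been used to pick the genes, so each of these contrasts has 1 side that the rule chose to be high, and the counts describe the set without being independent of the choice. Straw library 2 carried weight: without it the counts were 28 against maltose, 19 against cellulose and 15 against both. The libraries themselves did not overlap, with straw below, in 42 of 45 resolved genes against maltose (27.3% of the 901 resolved genes of the table). Against cellulose this held in 52 of 61 (36.1% of 1051).

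**Figure D2:**
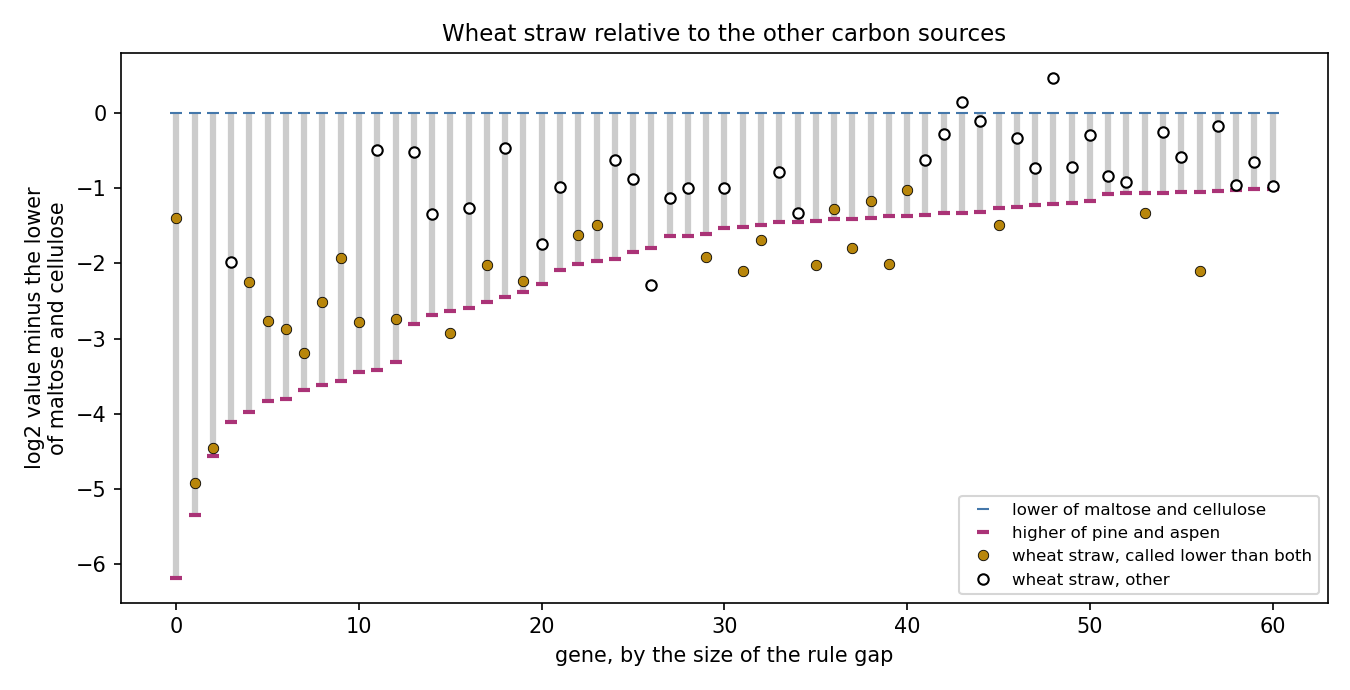
Position of wheat straw (circles) in each of the 61 genes, ordered by rule gap, in log2 units relative to the lower of maltose and cellulose (blue dashes at 0), with the higher of pine and aspen as red dashes. Filled circles are the 28 genes called lower on straw than on both maltose and cellulose; most circles lie within the grey span between the dashes.

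Most genes named here and below were picked for the size of a difference, and all come from a set that the rule chose. The limma adjusted p values take neither choice into account. Among genes resolved in the libraries compared, gene 306663 had the largest distance from straw to the lower of maltose and cellulose. It had 532, 1271 and 2190 reads on maltose, 760 and 1698 on cellulose, and 173 and 124 on wheat straw, with 156, 52 and 33 on pine and 47, 63 and 74 on aspen. Straw and pine overlapped, and both lay below every maltose and cellulose library. The log2 difference was -3.54 (SE 0.59, limma adjusted p = 0.000523) against maltose and -3.19 (SE 0.64, limma adjusted p = 0.00287) against cellulose. Gene 1325107 fell from 48, 108 and 150 reads on maltose to 10 and 15 on wheat straw, a difference of -3.37 (SE 0.77, limma adjusted p = 0.00402). Its cellulose libraries, with 38 and 156 reads, lay apart. The difference of -2.77 against cellulose (SE 0.84, limma adjusted p = 0.0248) was not called without cellulose library 2, where it was -1.83, nor without straw library 1 or 2, at -2.57 and -2.97.

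Genes 1370799 and 1117416, both abundant, fell further on straw, but their maltose libraries were not resolved. Gene 1370799 had 15997 and 5446 reads on cellulose and 191 and 179 on wheat straw, and went from 12.04 on maltose to 7.13 on straw. That difference was -4.91 (SE 0.91, limma adjusted p = 0.00199). The straw mean was close to the means of the woods, 6.70 on pine and 6.63 on aspen. The pine libraries were uneven, with 311, 58 and 34 reads. Gene 1117416, at rank 11 on maltose with 15.69, had 116129 and 48994 reads on cellulose and 4375 and 2353 on wheat straw. It stood at 11.23 on straw, 11.12 on pine and 10.12 on aspen, and differed by -4.46 between straw and maltose (SE 0.56, limma adjusted p = 0.000181). Its pine libraries were uneven too, with 3198, 1555 and 1277 reads. In both genes straw was nearer to the woods than to cellulose.

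Most genes of the set had a higher value on straw than on wood, though fewer were called. In 50 of the 61 genes (82%) straw lay above both woods, against 26.1% of all genes. Calls of higher expression on wheat straw than on the mean of pine and aspen numbered 17 (27.9%), against a background of 6.37%. The median difference of these 17 genes was 1.66. Limma called 0 lower (background 10.5%), and the count was also 0 at an unadjusted p below 0.05 with the same size limit. The wood values had been used to choose the genes as low. Straw libraries lay above all wood libraries in 22 of 55 resolved genes (40.0%, against 15.3% of the 759 resolved genes of the table). Without straw library 1 the calls numbered 10. Of the 17, 5 were also lower on straw than on both maltose and cellulose, 5 than on 1 of them, and 7 than on neither.

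Gene 1439293 had the largest such difference and was picked for it, from genes that the rule chose as low on wood. Its 115 and 165 reads on straw against at most 3 on wood gave a log2 difference of 4.99 (SE 0.38, limma adjusted p = 1.79e-05). The size depends on the constant added before the log: it was 3.43 with 8 reads added and 1.98 with 32, called in both. Straw was lower than maltose by a difference of -1.57 (SE 0.42, limma adjusted p = 0.0108). This second call was lost without straw library 1, at -1.38. Against cellulose the difference was -1.39 (SE 0.46, limma adjusted p = 0.0370). It was -0.62 and not called without cellulose library 2, and the call was also lost without straw library 1 (-1.20), straw library 2 (-1.58) or maltose library 3 (unchanged at -1.39). Gene 1331693 differed by 2.53 between straw and the woods (SE 0.58, limma adjusted p = 0.00952). With its few reads the call did not hold once 8 reads were added to every value, at 0.77, nor without either straw library, at 2.75 and 2.31. The abundant gene 1329216 was higher on straw than on the woods by 3.38 (SE 0.20, limma adjusted p = 5.44e-05) with its aspen and maltose libraries not resolved, and gene 1374919 by 1.55 (SE 0.39, limma adjusted p = 0.0435) with only cellulose and straw resolved.

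**Figure D3:**
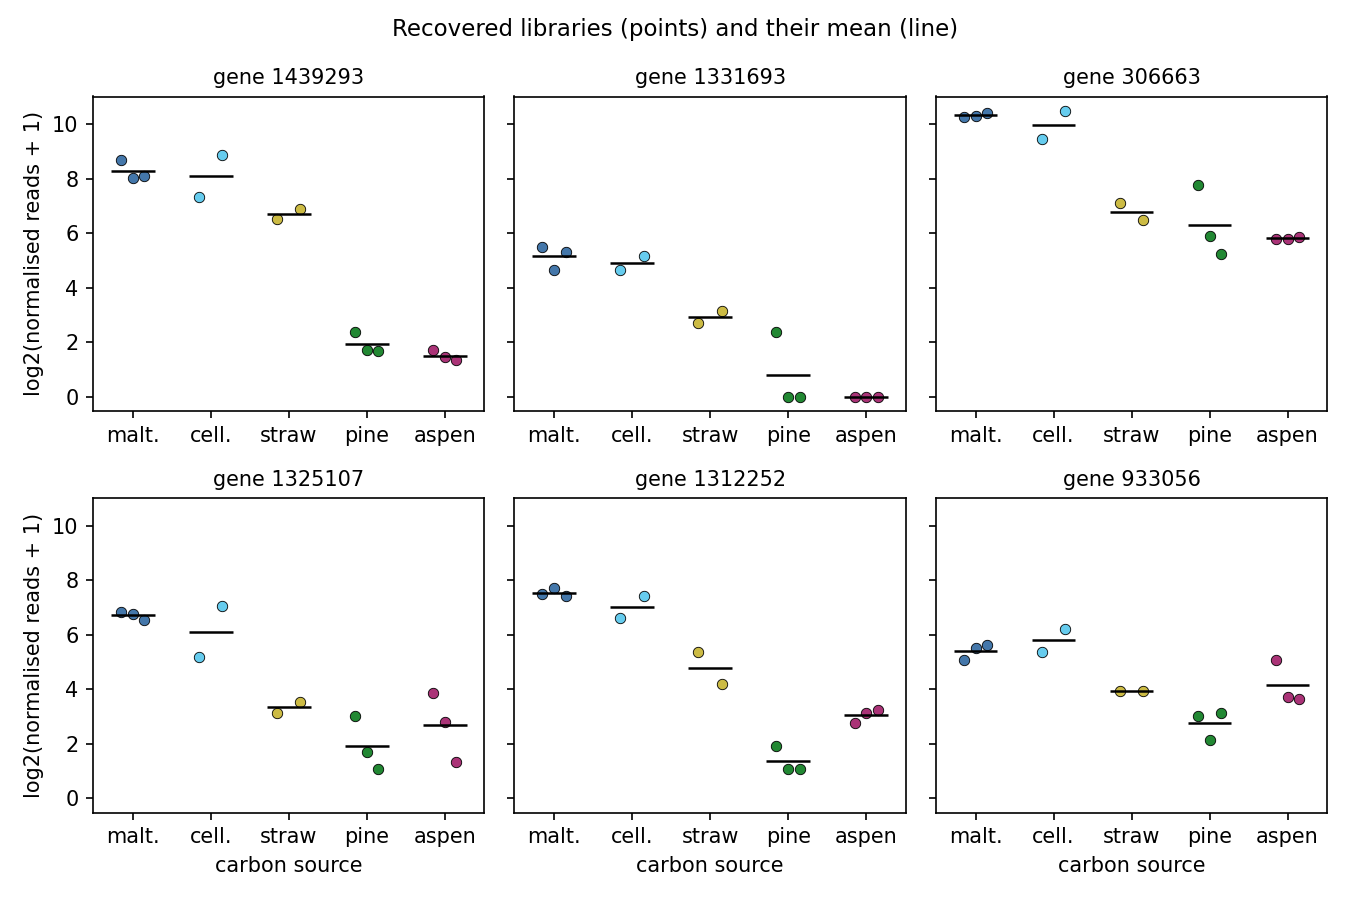
Values of 6 genes in the recovered libraries (points) with the mean of each carbon source (line), as log2(normalised reads + 1). Genes 1439293 and 1331693 have the largest rule gaps among fully resolved genes, 306663 and 1325107 the largest fall on straw, and 1312252 and 933056 were higher on aspen than on pine.

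Some genes stood outside the common order. Straw lay between pine and aspen in 9 (14.8%, against 36.8% of all genes) and below both woods in 2 (3.28%, against 37.1%). It was at or above the lower of maltose and cellulose in 2 (3.28%, against 68.7%). The genes named here are some of these and were singled out for it. Gene 1323881 was the only one with a higher value on wheat straw (13.13) than on both maltose (12.74) and cellulose (12.67). Its reads were 12034 and 11888 on straw and 6291 and 8493 on cellulose, and neither difference was called, at 0.39 (SE 0.20, limma adjusted p = 0.166) against maltose and 0.47 (SE 0.22, limma adjusted p = 0.143) against cellulose. The sign against maltose turned under quantile normalisation, to -0.25. Straw was lower than both woods in genes 1367675 and 571663. Gene 571663 had 72 and 57 reads on straw, 43, 63 and 49 on pine and 66, 77 and 99 on aspen. Straw fell below pine only after normalisation, at 5.62 against 5.96 on pine and 6.21 on aspen. The straw minus wood difference of -0.47 (SE 0.31, limma adjusted p = 0.286) was not called.

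Where straw lay was set beside the level of the gene. For the 19 genes with a mean of maltose and cellulose under 8, the median position of straw on the scale from 0 to 1 was 0.65, for the 24 genes from 8 to 11 it was 0.61, and for the 18 genes at 11 and over it was 0.57. The median rule gap was 1.53, 1.39 and 2.55 in these classes. Straw was called lower than both maltose and cellulose in 8, 10 and 10 of the genes, against 5.13% of all genes at any level. It was called higher than the woods in 3, 6 and 8, against 6.37%. Shares over all genes of the same level were not worked out, so no trend with level is read from these counts. These classes were set after the values were seen, and no difference between them was tested.

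Pine was also set against aspen. The rule used the higher of them but not their order, and pine was above aspen in 33 genes and below in 28, with a median difference of 0.06, against 0.11 over all genes. In 27 genes the woods were less than 0.5 apart. Limma called 3 genes higher on pine (4.92%, background 16.4%) and 4 higher on aspen (6.56%, background 6.56%). Both columns had been used by the rule, which left out genes that were high on either wood, so these shares are shaped by the choice and nothing is read from them against the background. All pine libraries lay above all aspen libraries in 9 of 55 resolved genes (16.4%, against 24.9% of the 759 resolved genes of the table), and aspen above pine in 13 (23.6%, against 27.0%).

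**Figure D4:**
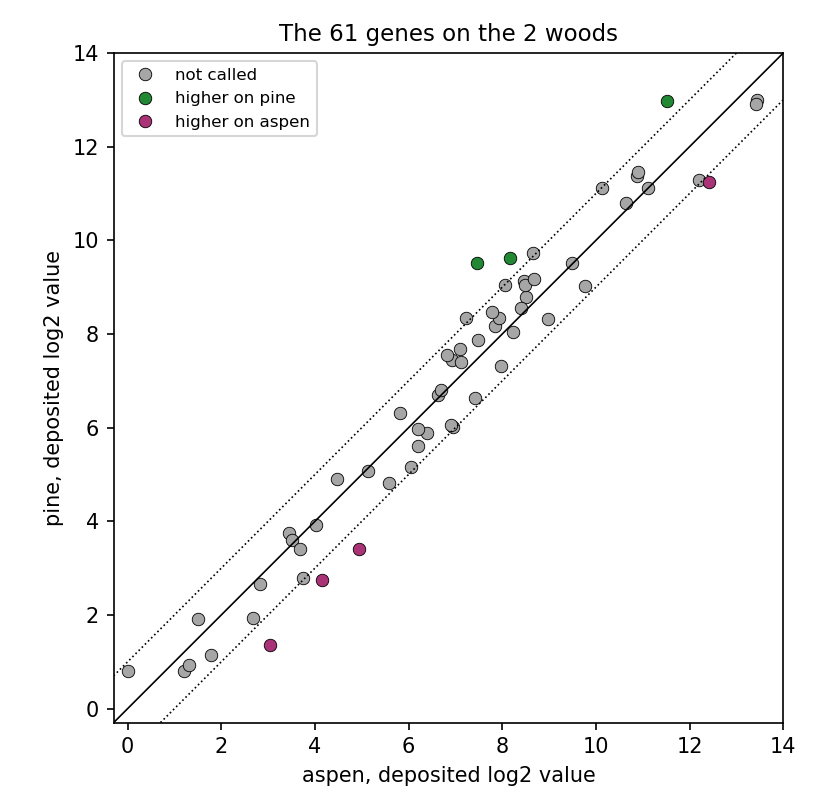
Deposited log2 value of the 61 genes on pine against aspen; the solid line marks equal values and the dotted lines a difference of 1. The 3 genes called higher on pine are green and the 4 called higher on aspen are purple.

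Gene 1327076 had 557, 654 and 611 reads on pine and 182, 157 and 245 on aspen. These libraries did not overlap, and the pine minus aspen difference of 2.05 (SE 0.34, limma adjusted p = 0.00190) was called with each library left out in turn. Straw, at 1305 and 1443 reads, was above both woods in this gene. Gene 1374758 had 1382, 441 and 452 reads on pine and 292, 297 and 349 on aspen, a difference of 1.46 (SE 0.50, limma adjusted p = 0.0443). Without pine library 1 this was 0.80 and not called. The call was also lost without any 1 of the aspen libraries (1.38 to 1.57) and without either straw library. The third gene, 1347504, was at 12.98 on pine and 11.51 on aspen, but neither wood was resolved, so its spread came from cellulose and straw alone, and its difference of 1.47 was 0.95 and not called after quantile normalisation.

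In the other direction, gene 1312252 had 2, 1 and 1 reads on pine and 5, 9 and 11 on aspen, a difference of -1.68 (SE 0.37, limma adjusted p = 0.00495). With 8 reads added to every value this was -0.66 and not called. Gene 933056 had 5, 3 and 7 reads on pine and 29, 14 and 15 on aspen, with a difference of -1.40 (SE 0.43, limma adjusted p = 0.0238) that was not called with 8 reads added (-0.86), without pine library 2 (-1.09) or without aspen library 1 (-0.93). The other genes called higher on aspen were 1375707 and 1305808. Gene 1375707 was at 11.23 on pine and 12.41 on aspen, a difference of -1.18 (SE 0.19, limma adjusted p = 0.00381). Its aspen and maltose libraries were not resolved, so no spread on aspen entered that test. Gene 1305808 had 23, 4 and 5 reads on pine and 18, 38 and 49 on aspen. The call of gene 1305808 ended when any library other than pine library 1 was left out.

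Libraries of a carbon source were not equal for these genes. Pine library 1 held the highest pine value in 39 of 57 resolved genes (68.4%), against 53.9% of the 790 genes of the table resolved on pine. It was at least 1 above the mean of the other pine libraries in 16 of the 57 (28.1%, against 14.4% of the 790), by 1.12 to 3.38. Of these 16, 11 were resolved on maltose and cellulose, and in 9 of the 11 pine library 1 still lay under every maltose and cellulose library. Wheat straw library 1 was the higher of its pair in 45 of the 61 genes (73.8%), against 54.6% of all genes, by a median of 0.23. It was at least 1 above straw library 2 in 8 genes (13.1%, against 3.24% of all genes) and at least 1 below it in 0 (against 2.47% of all genes). What sets these libraries apart was not tested.

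**Figure D5:**
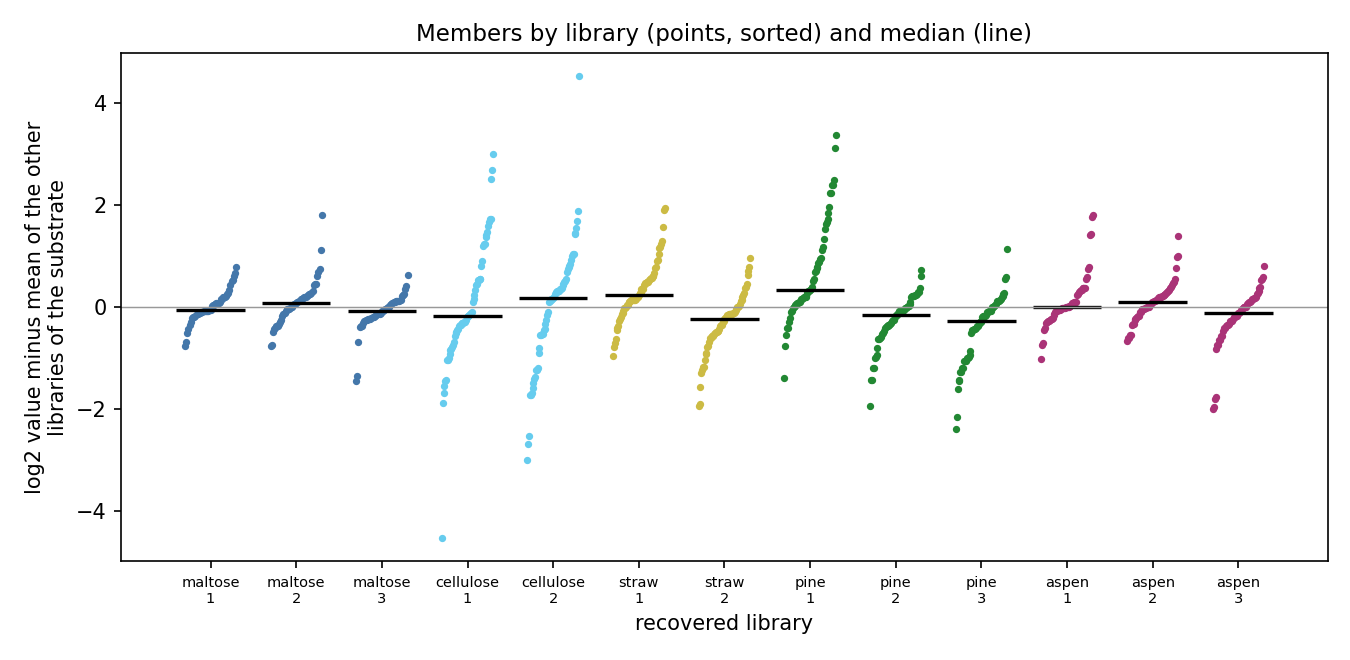
For each recovered library, the log2 value of each resolved gene of the set minus the mean of the other libraries of the same carbon source (points, sorted within a library), with the median as a line. The cellulose libraries spread widely in both directions, and pine library 1 and straw library 1 lie mostly above 0, at medians of 0.33 and 0.23.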

How the data were processed

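The deposited table holds 1 normalised log2 read count per carbon source for 1052 genes, per the file headers. TopHat2, HTSeq and DESeq (version 1.5) are named in the submitters' processing notes, without roles. Neither a genome build nor how replicates were merged is given in the sources used here. If the deposited log2 values are means of log2(reads × scale + 1), the lowest values fix the scales: the 60 lowest values of each column were all whole reads to within 1e-09, and at most 1 was with the scales moved by 1% (that one a value of 0). Reads were kept where 1 solution existed within a 16-fold range, or a 256-fold range where that held none (with 3 libraries, up to a value of 8). Values above 12 were not attempted with 3 libraries. Size factors lay between 0.426 and 1.61. On simulated columns 896 of 1052 genes were solved with 3 libraries and 1052 with 2, all with the right reads.

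The tests used limma 3.58.1 (R 4.3.3): means per carbon source over all 13 libraries, a trend of the spread, and adjustment over all 1052 genes. For simulated straw minus maltose, calls were made for 28 of 67 genes with a 2-fold change, for 62 of 67 at 4-fold and for 66 of 66 at 8-fold, and for 0 of 852 without change. For simulated pine minus aspen the numbers were 32 of 67, 67 of 67, 66 of 66 and 0 of 852. Whether these rates hold where libraries of a carbon source are as uneven as in the set was not tested. Reads were solved in numba 0.67.0 with NumPy 2.4.6 under Python 3.11.15, and plots were drawn with matplotlib 3.10.9.

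The genes and comparisons were chosen with earlier results of these data known. Named genes were, at most 2 per direction and comparison, those with the largest rule gap, the largest called differences with resolved libraries that did not overlap, the highest level, and those next to the rule's limits. The others are marked as singled out after their values were seen. Alternatives were median centring, quantile normalisation, 8 or 32 added reads, a filter at 5, resolved genes alone, only the carbon sources compared, no trend, and each library left out.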

Additional observations from a re-analysis of the deposited data

Results flagged for a closer look

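Genes whose changes from maltose differed between the woods, by limma's test of pine minus aspen, were looked at again. The rule had used both the pine and the aspen values to choose the set. The genes named here were then picked for the size of that same difference, so their differences are given as a description. Among genes resolved on both woods whose pine and aspen libraries did not overlap, the 2 with the largest called difference in each direction were gene 1327076, at 2.05, and gene 1374758, at 1.46, both higher on pine, and gene 1312252, at -1.68, and gene 933056, at -1.40, both higher on aspen. Genes 1374758 and 933056 lost the call when single libraries were left out, and genes 1312252 and 933056 have at most 29 reads in a wood library.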

How the results depend on the processing

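Leaving out 1 library at a time moved the calls lower on straw to between 28 and 41 against maltose, 19 and 36 against cellulose, and 15 and 30 against both. Calls higher on straw than on wood ran from 10 to 20, higher on pine from 2 to 4, higher on aspen from 2 to 6, and genes meeting the rule from 48 to 68 (this last chosen after seeing the data). A lone library left on cellulose or straw was assumed to vary like the others. With only fully resolved genes, where 45 of the 61 could be counted, 9 were higher on straw than on wood, 0 higher on pine and 2 higher on aspen. Genes higher on aspen numbered 1 with 8 added reads, 1 with 32, and 2 with only the woods fitted. The rule was met by 32 genes at a gap of 1.5, 23 at 2, and 37 with cellulose and maltose under 0.5 apart. Centring each column on its median gave 87, among them 44 of the 61. Under that centring straw lay above both maltose and cellulose in 0 of the 61 and below both woods in 4. With a margin of 0.5, straw was above both woods in 31. Scaling moved the all-gene median of straw minus maltose from 0.19 to -0.05 with centred libraries and -0.37 after quantile normalisation, and that of the 61 genes from -1.57 to -1.81 and -2.20. The single reversal was straw minus maltose of gene 1323881, -0.25 after quantile normalisation, which was not called either way. Causes were not tested. No paired analysis was possible because the columns carry no replicate numbers. Depth limits the genes with few reads on wood.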

Other observations

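Library deviations were set side by side across carbon sources. The excess of pine library 1 over the other pine libraries and that of straw library 1 over straw library 2 had a Pearson r of -0.12 over 57 genes, against 0.13 over 790 genes of the table. For pine library 1 and cellulose library 1 it was 0.04 over the same 57 genes, against -0.10 over 790 genes of the table. Genes within a library share its depth and are not independent, so these values are given as a description. Of the 16 genes at least 1 higher in pine library 1, 11 were higher in straw library 1, and of the other 41 resolved on pine, 30 were. Over all genes of the table the same counts were 74 of 114 and 361 of 676.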
